A study of Bos taurus with 24 samples.

Results

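RNA of 10 genes of mitophagy and mitochondrial dynamics was followed in bovine oocytes: PINK1, BNIP3, BNIP3L, PHB, MFN1, MFN2, OPA1, DNM1L, FIS1 and MFF. The genes were picked by symbol, and all 10 were found among the 11306 genes of the deposited table. All 10 also passed the filter on low values, a value over 0.1 in at least 1 library, which left 9526 genes for testing. The oocytes came from non-lactating, non-pregnant crossbred Angus-based beef cows of 3 to 6 years. There were 4 groups of 6 libraries: germinal vesicle (GV) oocytes of May (spring), GV oocytes of July (summer), and metaphase II (MII) oocytes of the same months. GV oocytes are arrested in the first meiotic prophase, and the MII oocytes had been matured from that stage in culture with FSH and serum, so stage also stands for time in culture. All oocytes were stripped of their cumulus cells, and RNA of 4 oocytes of 1 cow was pooled for each library and amplified by Smart-seq2, which captures polyadenylated RNA and keeps no strand. The study collected from the same 10 cows each month and split each cow's oocytes between the stages, so groups can share cows. The labels do not say whether the same cow gave the same replicate number in each group. Season stands for summer heat as it occurred, with no controlled exposure.

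Mitochondria of an oocyte are inherited by the embryo, and their network is remodelled by fusion, fission and selective removal. MFN1 and MFN2 join outer membranes and OPA1 joins inner membranes, while DNM1L is the GTPase that constricts the organelle after adaptors such as FIS1 and MFF bring it to the surface. In mitophagy, PINK1 is the kinase that builds up on depolarised mitochondria and recruits the ubiquitin ligase Parkin, BNIP3 and BNIP3L are outer membrane receptors that bind LC3-type proteins, and PHB (prohibitin) forms inner membrane rings with its partner PHB2, itself a mitophagy receptor.

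Values are FPKM, fragments per kilobase of exon corrected for the number mapped, scaled so that every library has the same total. They are shares of the polyadenylated RNA captured in a library, and a lower share does not by itself mean fewer molecules per oocyte. The pools were checked against marker genes. All 10 oocyte markers were present in every group, with summed levels of 937 to 2296 FPKM over the libraries. The 16 cumulus cell markers summed to 27.0 to 130 FPKM in 21 libraries, led by KRT8 and STAR in most of them. The sum of 130 FPKM was that of spring GV replicate 3, led by VIM at 75.7 FPKM. That library also held the highest AMH, at 13.4 FPKM, and the highest INHBA, at 2.82 FPKM, of the 24 libraries. FSHR, AREG and CYP19A1 stayed at or near the lowest value of the table. Of the 13 cumulus markers that were tested between stages, HAS2 was higher at MII, with a median of 0.277 FPKM in spring GV against 1.45 FPKM in MII (log2 fold change 1.06) and of 0.351 against 1.77 FPKM in summer (1.04), and GREM1 was lower in summer, with medians of 0.639 and 0.0498 FPKM (-0.45). The part of such cells in the changes between stages was not tested. The other 3 libraries were the shallowest, and they also had a low share of mapped reads in the study. Relative to spring GV replicate 1, spring GV replicate 6 had a depth of 0.0565, replicate 6 of the spring MII group 0.149 and replicate 2 of the summer GV group 0.393, against 0.542 to 6.51 in the others. Their cumulus marker sums were 586, 162 and 121 FPKM in the same order, the last below the 130 FPKM of spring GV replicate 3. In spring GV replicate 6 the sum came mainly from KRT18 at 392 FPKM and KRT8 at 146 FPKM. KRT18 was 70.8 FPKM in spring MII replicate 6 and 34.4 FPKM in summer GV replicate 2. The cumulus markers did not move together, since AMH was at 0.01 FPKM in each of these 3 libraries. Spring GV replicate 6 held the highest GREM1 of the 24 libraries, 1.25 FPKM, but its INHBA was 0.158 FPKM. These 3 libraries are drawn as open points in the plot of values by library, and results between stages that rest on them are given with and without them.

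**Figure D1:**
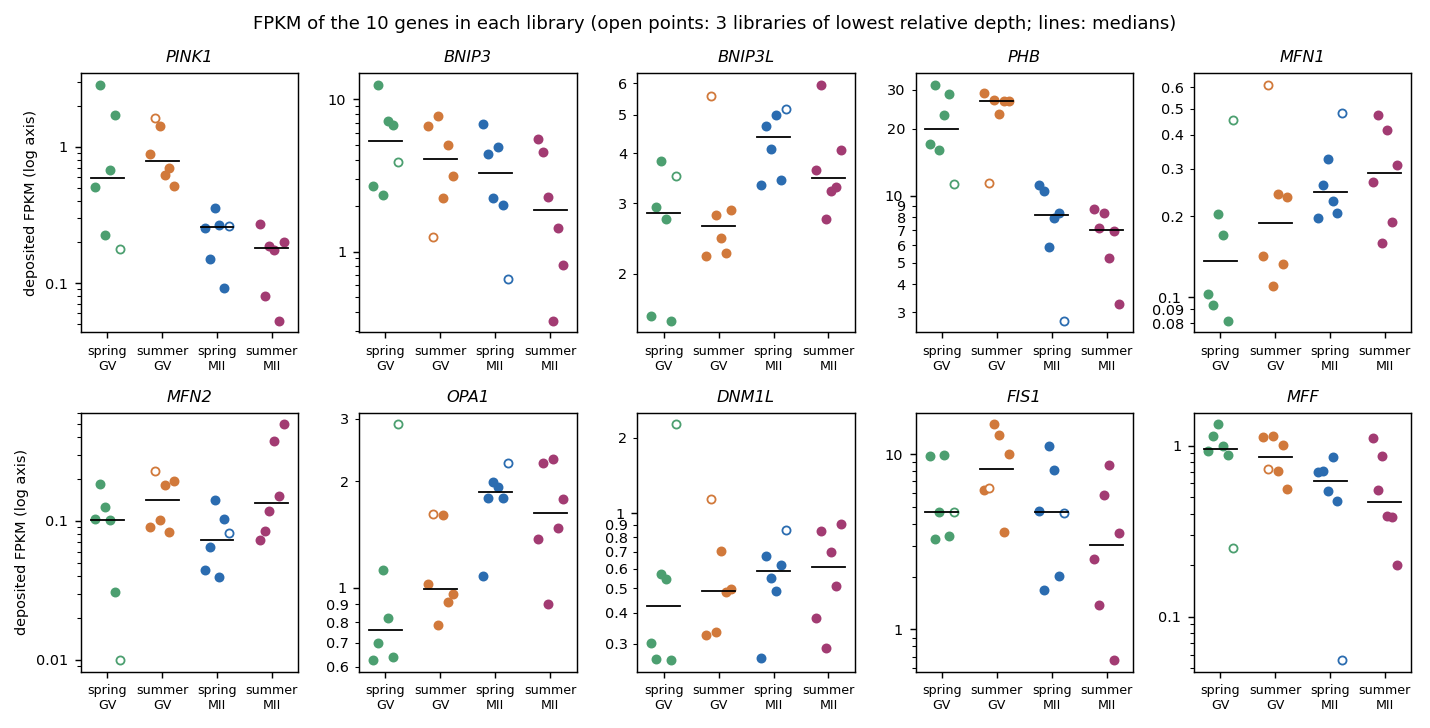
Deposited FPKM (log axis) of the 10 genes in the 24 libraries, by season and stage, with 1 point per library, a line at each median and open points for the 3 libraries of lowest relative depth. PHB of every MII library lay below PHB of every GV library, PINK1 of summer MII lay below summer GV, and the open points of spring GV were the highest of their group for OPA1, DNM1L and MFN1.

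The 10 genes differed widely in level. PHB had the highest mean in all 4 groups, from 6.61 ± 2.05 FPKM in summer MII to 24.01 ± 6.40 FPKM in summer GV oocytes (SD, n = 6), above 88.3% to 94.5% of the genes tested. FIS1, BNIP3 and BNIP3L followed with group means of 2.47 to 8.99 FPKM. OPA1, MFF and DNM1L had means of 0.556 to 1.81 FPKM, and MFN1 and MFN2 of 0.0790 to 0.303 FPKM. Among neighbours in the order of levels, ranges over libraries were separate only for PHB over FIS1 in spring GV, BNIP3L over OPA1 in summer GV and OPA1 over DNM1L in spring MII oocytes. MFN2 was the lowest gene of 3 groups, and in summer MII oocytes its place was taken by PINK1, although their ranges overlapped there.

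Maturation was compared first, as MII against GV oocytes within each season. In spring, 1 of the 10 genes passed an adjusted p of 0.05, PHB, which fell. Over all genes tested, 14.7% fell and 9.45% rose by the same rule, so 1 in 10 was no more than the background. In summer 2 genes passed, PHB and PINK1, and both fell, where 23.1% of all genes fell and 7.67% rose. The median log2 fold change of the 10 genes was -0.12 in each season, against -0.03 over all genes in spring and -0.02 in summer. The split of all genes depended on scaling. In spring, 900 genes rose and 1404 fell as deposited, and 1937 rose and 1345 fell after quantile normalization. In summer, 731 rose and 2198 fell as deposited, 2158 rose and 1778 fell after quantile normalization, and 1394 rose and 2355 fell after median-of-ratios scaling. By the thresholds of the study, which ask for more than a 2-fold change and for p under 0.05 without adjustment, PHB alone was lower in spring, beside 8.25% of all genes, and PHB and FIS1 were lower in summer, beside 9.26%. These counts depend on the 1 added before taking logs, which compresses folds of low values. With 0.1 added instead, a choice made after seeing the data, PINK1 also met these thresholds in both seasons, beside 17.5% of all genes lower in spring and 20.6% in summer.

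**Figure D2:**
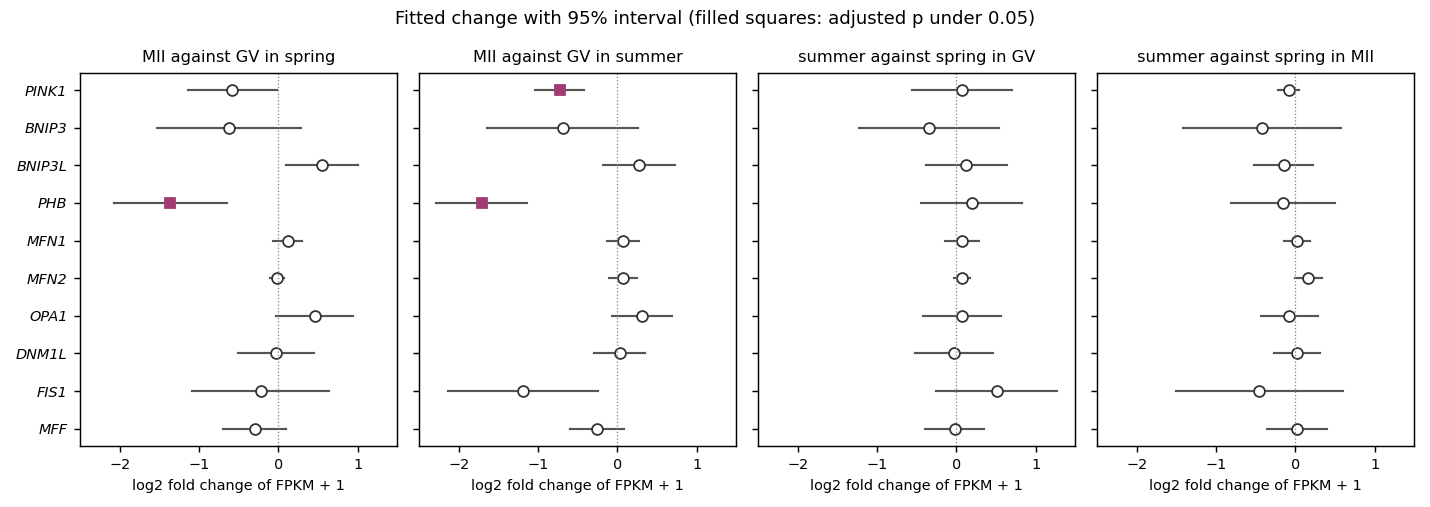
Log2 fold change of FPKM + 1 with its 95% confidence interval for each gene in the 4 comparisons, 6 against 6 libraries, with filled squares for an adjusted p under 0.05. PHB in both seasons and PINK1 in summer lie left of 0, and the intervals of the season comparisons all include 0.

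PHB showed the clearest change of the 10 genes. It lies on chromosome 19 from 37828780 to 37839398 on the plus strand of UMD3.1. In spring GV oocytes its lowest, median and highest values were 11.3, 20.0 and 31.4 FPKM, and in spring MII oocytes 2.75, 8.16 and 11.2 FPKM. In summer GV oocytes they were 11.4, 26.7 and 28.9 FPKM, and in summer MII oocytes 3.27, 7.03 and 8.72 FPKM. The GV and MII ranges did not overlap in either season, a separation in the same direction shown by 8.98% of all genes in spring and 14.7% in summer. The 2 lowest GV values were those of the 2 shallow GV libraries, and the lowest of all values was that of the shallow MII library. The mean level was 2.74-fold lower in MII oocytes in spring (log2 fold change -1.36, SE 0.33, limma adjusted p = 0.01003) and 3.63-fold lower in summer (-1.71, SE 0.26, adjusted p = 0.000436). The two-sided exact permutation p was 0.00216 in each season, the smallest that the permutations can give. PHB passed in all 12 fits that left out 1 library and in all 10 other alternatives, in each season. Without the 3 shallow libraries the changes were -1.29 in spring and -1.90 in summer. In captured polyadenylated RNA from pools, fewer oocytes contributing a transcript, less of it in each oocyte and less of it polyadenylated cannot be told apart.

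PINK1 had a lower share at MII as well, and passed in summer. The gene occupies chromosome 2 from 132601300 to 132621739 on the minus strand. In summer its lowest, median and highest values were 0.515, 0.790 and 1.63 FPKM in GV and 0.0530, 0.181 and 0.269 FPKM in MII oocytes. These ranges did not overlap, as for 14.7% of all genes in the same direction, and the means differed by 5.97-fold. The log2 fold change was -0.73 with SE 0.14 (limma adjusted p = 0.00220, exact permutation p = 0.00216), and it is smaller than the ratio of means because 1 was added to low values before taking logs. The call held in all 12 fits without 1 library and in all 9 alternatives of the fit, with a change of -1.98 when 0.1 and -2.65 when nothing was added before taking logs. With 1 added it was under the 2-fold threshold of the study, and with 0.1 or nothing added it was over it. In spring the GV values ran from 0.177 through a median of 0.591 to 2.84 FPKM, and the MII values from 0.0922 through 0.259 to 0.356 FPKM. The spring groups overlapped because GV replicates 3 and 6 were low, at 0.227 and 0.177 FPKM, and the change of -0.58 with SE 0.26 missed the adjusted threshold (limma adjusted p = 0.118, exact permutation p = 0.0411). It passed without GV replicate 6 (-0.71, adjusted p = 0.0486). The seasons were not shown to differ in this change (difference -0.15, 95% interval -0.78 to 0.48 over all 4 groups). The depth behind PINK1 was thin. Counted in steps, where 1 step is the smallest increment of a gene's values in a library, its values rested on 102 to 951 steps in summer GV and on 8 to 53 steps in summer MII oocytes.

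The receptors BNIP3 and BNIP3L did not pass in either season, and their values lay on opposite sides of 0. BNIP3L (chromosome 8, 74924184 to 74947551, plus strand) had a lowest, median and highest value of 1.53, 2.84 and 3.83 FPKM in spring GV and 3.34, 4.39 and 5.18 FPKM in spring MII oocytes. In summer they were 2.21, 2.64 and 5.57 FPKM in GV and 2.74, 3.47 and 5.93 FPKM in MII oocytes. The MII values were thus mostly above the GV values, with overlap in both seasons. The spring change was 0.55 with SE 0.21 (limma adjusted p = 0.0720, exact permutation p = 0.0130) and the summer change 0.28 with SE 0.21 (adjusted p = 0.342). The spring change passed when GV replicate 3 (0.64, adjusted p = 0.0438) or GV replicate 6 (0.62, adjusted p = 0.0327) was left out. Summer GV replicate 2, a shallow library, held the highest GV value of BNIP3L. Without it the summer change was 0.43 (adjusted p = 0.0608).

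BNIP3 (chromosome 26, 51353508 to 51357473, minus strand) varied widely within each group. Its lowest, median and highest values were 2.36, 5.34 and 12.4 FPKM in spring GV, 1.25, 4.05 and 7.77 FPKM in summer GV, 0.661, 3.29 and 6.86 FPKM in spring MII and 0.352, 1.86 and 5.45 FPKM in summer MII oocytes. The medians were lower at MII, and the ranges overlapped throughout. Its changes were -0.62 with SE 0.42 in spring (limma adjusted p = 0.292) and -0.69 with SE 0.44 in summer (adjusted p = 0.253). Within libraries, the ratio of BNIP3L to BNIP3 had medians of 0.481 in spring GV, 0.687 in summer GV, 1.40 in spring MII and 1.83 in summer MII oocytes. BNIP3L exceeded BNIP3 in 1 and 2 of 6 GV libraries and in 5 and 5 of 6 MII libraries. This ratio was chosen after the values had been seen and is given without a test.

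Among the fusion genes, OPA1 had higher medians at MII, with a call that depended on 1 library and on scaling. OPA1 lies on chromosome 1 from 74382912 to 74467421 on the minus strand. Its lowest, median and highest values were 0.627, 0.761 and 2.90 FPKM in spring GV and 1.08, 1.87 and 2.26 FPKM in spring MII oocytes. The highest GV value was that of replicate 6, the shallowest library of the series, and the next highest was 1.12 FPKM. With this library the spring change was 0.46 with SE 0.22 (limma adjusted p = 0.147, exact permutation p = 0.0714), and without it 0.65 with SE 0.15 (adjusted p = 0.00559). In summer OPA1 ran from 0.784 through 0.995 to 1.62 FPKM in GV and from 0.903 through 1.63 to 2.31 FPKM in MII oocytes. The summer groups overlapped, with a change of 0.31 and SE 0.17 (adjusted p = 0.196). After quantile normalization it passed in spring (adjusted p = 0.0182) and summer (0.0123), and after median-of-ratios scaling in summer (0.0482).

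MFN1 was low in all groups, and its highest values were in shallow libraries. MFN1 also lies on chromosome 1, from 88263736 to 88389905 on the minus strand. Its median was 0.136 FPKM in spring GV, 0.189 FPKM in summer GV, 0.245 FPKM in spring MII and 0.289 FPKM in summer MII oocytes. Those of the GV groups, 0.456 FPKM in spring and 0.613 FPKM in summer, and that of spring MII, 0.481 FPKM, were in the 3 shallow libraries. The changes were 0.12 with SE 0.08 in spring (limma adjusted p = 0.304) and 0.07 with SE 0.10 in summer (adjusted p = 0.600). Without summer GV replicate 2 the summer change was 0.15 (adjusted p = 0.103). Without spring GV replicate 6 the spring change was 0.18 with SE 0.06 (adjusted p = 0.0358).

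MFN2 (chromosome 16, 42560147 to 42587222, minus strand) was close to the limit of detection. In 5 of 24 libraries it rested on fewer than 10 steps, and in spring GV replicate 6 it stood at 0.01, the lowest value of the table. Its medians were 0.102 FPKM in spring GV, 0.141 FPKM in summer GV, 0.0732 FPKM in spring MII and 0.135 FPKM in summer MII oocytes. The change from GV to MII was -0.02 with SE 0.04 in spring and 0.07 with SE 0.08 in summer (limma adjusted p = 0.769 and 0.512), with signs that varied between settings in spring.

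Among the fission genes, FIS1 came closest to a call. FIS1 lies on chromosome 25 from 36034989 to 36038647 on the plus strand. In summer its lowest, median and highest values were 3.60, 8.21 and 14.8 FPKM in GV and 0.670, 3.04 and 8.68 FPKM in MII oocytes. The ranges overlapped, and the change was -1.19 with SE 0.44 (limma adjusted p = 0.0566, exact permutation p = 0.0325). It passed in 3 of 12 fits without 1 library, at -1.39 without GV replicate 5, -1.34 without MII replicate 3 and -1.44 without MII replicate 4. It also passed in 3 of 10 alternatives, with the lowest limma adjusted p, 0.00336, when the replicate number was a block. The labels do not say that a number marks a cow. In spring FIS1 ran from 3.30 through 4.68 to 9.88 FPKM in GV and from 1.67 through 4.67 to 11.1 FPKM in MII oocytes, so the medians were nearly equal, with a change of -0.22 (SE 0.40, adjusted p = 0.686). The change in summer minus that in spring was -0.96 with an interval of -2.22 to 0.29 over all 4 groups, which leaves a seasonal difference unshown.

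DNM1L, the fission GTPase itself, and its adaptor MFF did not pass in either season. DNM1L (chromosome 5, 77514853 to 77575340, minus strand) had medians of 0.424 FPKM in spring GV, 0.490 FPKM in summer GV, 0.588 FPKM in spring MII and 0.607 FPKM in summer MII oocytes. Spring GV replicate 6 stood apart at 2.27 FPKM, where the other 5 libraries of the group were between 0.259 and 0.570 FPKM. The changes were -0.03 with SE 0.22 in spring and 0.03 with SE 0.15 in summer (limma adjusted p = 0.936 and 0.906), and without replicate 6 the spring change was 0.18 (adjusted p = 0.240). YARS2, which the table places across part of DNM1L on the opposite strand, was at most 0.214 FPKM in any library, and with unstranded reads the genes cannot be fully separated. MFF (chromosome 2, 116299856 to 116328015, plus strand) had medians of 0.961 FPKM in spring GV, 0.863 FPKM in summer GV, 0.624 FPKM in spring MII and 0.469 FPKM in summer MII oocytes. Its lowest values of the spring groups, 0.252 FPKM in GV and 0.0559 FPKM in MII oocytes, were again in the shallow libraries and rested on 4 and 2 steps. Its changes were -0.30 with SE 0.18 in spring and -0.26 with SE 0.16 in summer (adjusted p = 0.244 and 0.233).

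Of the 12 fits of the spring comparison without 1 library, that without GV replicate 6 moved the count most. The count of called genes was then 5 instead of 1, while the share called over all genes went from 24.2% to 37.9%, with PHB (-1.52) and PINK1 (-0.71, limma adjusted p = 0.0486) lower and OPA1 (0.65), BNIP3L (0.62, adjusted p = 0.0327) and MFN1 (0.18) higher at MII. Without all 3 shallow libraries 5 genes passed as well, beside 41.9% of all genes, but PINK1 (-0.71, adjusted p = 0.0598) gave place to MFF (-0.31, adjusted p = 0.0446). In the 2 shallow GV libraries together, OPA1, DNM1L and MFN1 held the 2 highest and PHB the 2 lowest of the 12 GV values. The part of low depth and of cumulus cell RNA in these values was not tested. Scaling mattered as well: after quantile normalization OPA1, BNIP3L and MFN1 were also called higher at MII, with changes of 0.59, 0.72 and 0.20 in spring and 0.53, 0.57 and 0.21 in summer. The share of all genes called was then 34.5% in spring and 41.3% in summer.

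**Figure D3:**
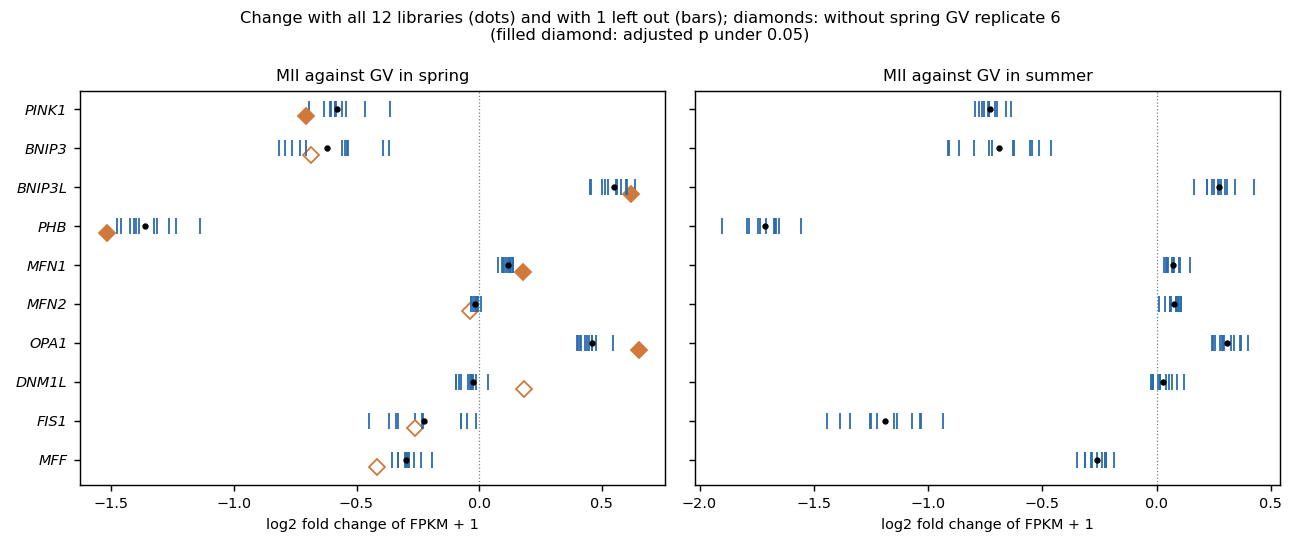
Log2 fold change of FPKM + 1 from GV to MII with all 12 libraries of a season (dots) and with each library left out in turn (bars), with diamonds for the fit without spring GV replicate 6, filled where the adjusted p was under 0.05. OPA1 moved from 0.46 to 0.65 without that library, and PHB stayed between -1.52 and -1.14 in spring and between -1.90 and -1.56 in summer.

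Season was compared next, as summer against spring within each stage. None of the 10 genes passed in GV or in MII oocytes by limma, with an adjusted p under 0.05 in 0% of all genes in either stage and 0 of the 10 genes at an unadjusted p under 0.05. At that unadjusted threshold the background was 1.55% of all genes in GV and 2.11% in MII oocytes. The mean of PHB was 21.3 ± 7.84 FPKM in spring and 24.01 ± 6.40 FPKM in summer GV oocytes (SD, n = 6), a change of 0.19 with a 95% interval of -0.45 to 0.83. The lowest PHB value of each GV group was in a shallow library, and the change ran from 0.035 to 0.382 when 1 library was left out. PINK1 averaged 1.02 ± 1.05 FPKM in spring and 0.961 ± 0.458 FPKM in summer GV oocytes, a change of 0.07 with an interval of -0.56 to 0.70. FIS1 had the largest seasonal value in GV oocytes, 0.51 with an interval of -0.25 to 1.27, and BNIP3 the lowest, -0.35 with an interval of -1.23 to 0.53.

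In MII oocytes MFN2 was the gene nearest to a seasonal difference. Its lowest, median and highest values were 0.0393, 0.0732 and 0.141 FPKM in spring and 0.0728, 0.135 and 0.496 FPKM in summer. Summer replicates 4 and 6, at 0.373 and 0.496 FPKM, stood above all spring libraries, and the other summer libraries lay among or just over the spring values. Replicates 4 and 6 had the lowest relative depths of the summer MII group, 0.568 and 0.542 against 0.807 to 0.989. Their cumulus marker sums, 71.0 and 84.6 FPKM, were the highest of that group. The part of either in the MFN2 values was not tested. The change was 0.16 with an interval of -0.01 to 0.33 (exact permutation p = 0.0606, limma adjusted p = 1). It was set largely by the added 1, since it was 0.68 when 0.1 and 1.21 when nothing was added. With nothing added the change met the thresholds of the study, and with 0.1 or 1 added it was under 2-fold. It reached an unadjusted p under 0.05 in 5 of 9 alternatives and in 3 of 12 fits without 1 library, those without summer replicate 1, 2 or 3, and no adjusted p did. The other 9 genes had seasonal changes of -0.46 to 0.02 in MII oocytes, the lowest that of FIS1 with an interval of -1.51 to 0.60. The seasonal medians over the 10 genes were 0.07 in GV and -0.08 in MII oocytes, against 0.01 and -0.01 over all genes. Whether maturation differed between seasons was also fitted over all 4 groups. None of the 10 genes passed by limma, adjusted or unadjusted, where 0% and 1.8% of all genes did.

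The other genes of the pathway were described by 7 lists of 95 genes by role, of which 87 were in the table and 83 were tested. In spring 8 were higher at MII, 13 were lower and 62 did not pass. In summer 10 were higher, 20 lower and 53 did not pass. These are 9.64% higher and 15.7% lower in spring and 12.05% higher and 24.1% lower in summer, close to the shares over all genes given above. Fusion and OPA1 processing had 1 higher and 2 lower of 10 in spring and 1 and 3 in summer. PARL, an inner membrane protease that cleaves PINK1, rose from 4.55 to 9.16 FPKM in spring (log2 fold change 0.90) and from 5.14 to 9.69 FPKM in summer (0.81), and the protease subunit SPG7 fell, with log2 fold changes of -0.27 and -0.28. Fission had 0 higher and 3 lower of 11 in each season. MTFP1, an inner membrane fission protein, fell from 2.88 to 0.293 FPKM in spring and from 1.60 to 0.174 FPKM in summer.

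In the PINK1-Parkin axis, the largest of the lists, 5 of 18 genes rose in spring and 4 in summer, where 9.45% and 7.67% of all genes did, while 1 and 3 fell. TOMM7, a subunit of the outer membrane import complex that helps to hold PINK1 there, rose from 47.5 ± 10.4 to 114 ± 22.5 FPKM in spring (SD, n = 6, log2 fold change 1.25, limma adjusted p = 0.00165). In summer the autophagy receptor TAX1BP1 rose from 3.13 to 6.28 FPKM. VDAC3, an outer membrane channel, fell, with log2 fold changes of -1.63 in spring and -2.04 in summer. Among receptors and LC3-type proteins, 1 rose and 2 fell of 14 in spring, and 2 rose and 3 fell in summer. GABARAPL2, an LC3-type protein, rose from 15.2 to 30.4 FPKM in spring and from 17.7 to 33.1 FPKM in summer. PHB2, the partner of PHB, fell from 13.2 ± 3.85 to 2.97 ± 0.732 FPKM in spring (log2 fold change -1.82, adjusted p = 0.000153) and from 14.9 ± 10.8 to 2.45 ± 0.705 FPKM in summer (-2.03, adjusted p = 0.000557).

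In the list of inner membrane shape, 3 of 12 genes fell in spring and 6 of 12 in summer, where 14.7% and 23.1% of all genes did, and 0 rose. TMEM11, which shapes the cristae, fell from 15.6 ± 6.06 to 0.596 ± 0.250 FPKM in spring (log2 fold change -3.30) and from 14.6 ± 3.24 to 0.546 ± 0.278 FPKM in summer (-3.32, limma adjusted p = 7.38e-07). The median change of this list was -0.17 in spring and -0.22 in summer, against -0.03 and -0.02 over all genes. In mitochondrial transport, 0 rose and 1 fell of 6 in spring, and 1 rose and 1 fell in summer. The motor adaptor RHOT2 fell, with log2 fold changes of -1.23 and -1.28, and the kinesin KIF5B rose by 0.43 in summer. In mitochondrial DNA upkeep, 1 rose and 1 fell of 12 in spring, and 2 rose and 1 fell in summer. TFB2M, a mitochondrial transcription factor, rose by 0.90 and 1.18, and SSBP1, the single-strand DNA-binding protein of mitochondria, fell, at -2.33 and -2.38.

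**Figure D4:**
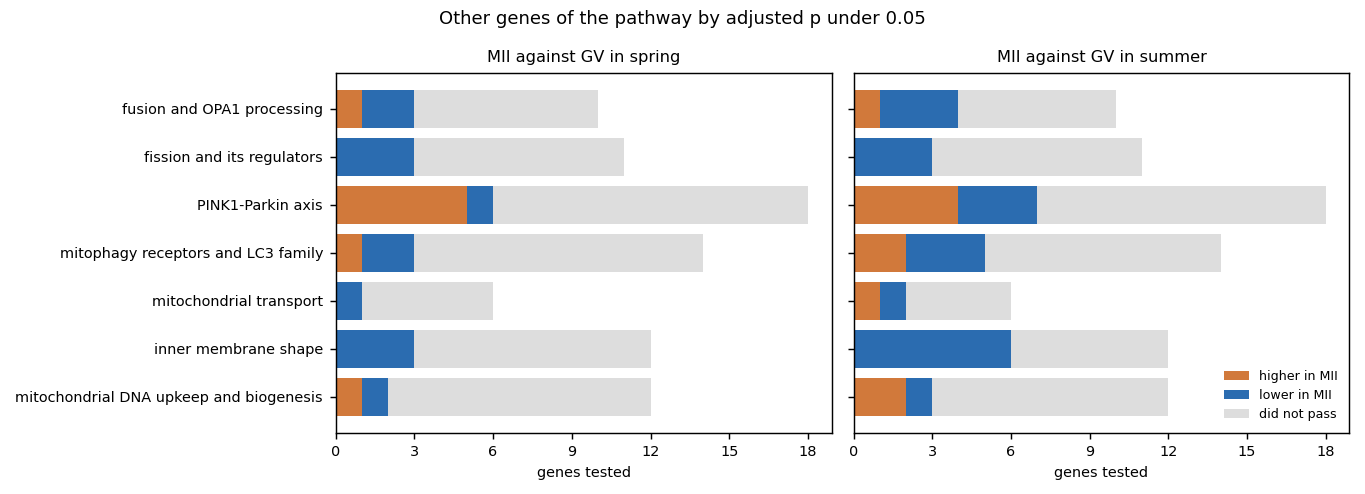
Number of tested genes in each of the 7 lists that were higher in MII oocytes, lower in MII oocytes or did not pass an adjusted p of 0.05, by season. Genes that rose were most numerous in the PINK1-Parkin axis (5 of 18 in spring, 4 of 18 in summer), the largest list, and genes that fell in inner membrane shape in summer (6 of 12).

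As a description, the gene with the most similar values to each of the 10 was sought among 3660 genes with a mean of at least 1 FPKM, by Pearson correlation of log2(FPKM + 1) over the 24 libraries. The libraries share depth, stage and season, so these values carry no test. PHB was nearest to PRDX2, a peroxiredoxin, at 0.969, and PINK1 to ARFGAP1 at 0.938. MFN1 was nearest to GFM2 at 0.938, OPA1 to RRAGA at 0.937 and DNM1L to HSPD1, the mitochondrial chaperonin, at 0.916. BNIP3 was nearest to DND1 at 0.895, BNIP3L to RAB2B at 0.884 and MFF to ADI1 at 0.878. The least close were MFN2 with PAFAH1B2 at 0.801 and FIS1 with NPM2 at 0.726.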

How the data were processed

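Reads were aligned by the authors to UMD3.1 with STAR 2.5.3a and quantified as FPKM, per the labels and methods. The deposited FPKM table lists 1 value per gene and library, and its coordinates are as deposited. The values showed a common total of 86768 FPKM per library and an added 0.01. No counts were given, so the relative depth of libraries was taken from the spacing of low values in Python 3.11.15, numpy 2.4.6 and pandas 2.3.3 (16 of 16 simulated libraries of 8000 genes were solved). The share of values within 0.1 of a whole number of steps was 99.5% in the lowest library. It covers only small values of low genes for which a step was found, and the same values set the scale of each library. Only 5 of the 10 genes had a common step, so steps were not used as counts in a test.

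Genes over 0.1 FPKM in at least 1 of 24 libraries were fitted as log2(FPKM + 1) with limma 3.58.1 in R 4.3.3, with trend, using the 2 groups compared, and p-values were Benjamini-Hochberg adjusted over 9526 genes. In values simulated for MII against GV in spring, 190 of 200 genes given a log2 change of 2 were recovered. The study used Partek, which was not used here. Single genes had an exact two-sided permutation test over all assignments of the 6 and 6 libraries, 40 tests in all. P-values measure the spread between libraries. In the main fits and the permutations libraries were taken as independent, although groups can share cows. The 10 genes and the lists were chosen with earlier results of these data known. All 10 genes were named, and for each list and season the higher and the lower called gene of smallest p. Alternatives were the pseudocount (0.1 or none), filter, scaling, moderation, samples in the fit, libraries left out, a replicate block and the study's thresholds.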

Additional observations from a re-analysis of the deposited data

Results flagged for a closer look

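In 6 of 40 combinations of gene and group, 1 library stood so far from the other 5 that its gap exceeded Dixon's 95% critical value for 6 values. That value assumes normally distributed values, while FPKM was used here without logs and the genes share libraries. The 6 of 40 therefore cannot be set against a rate of 5%. All 6 were in the 2 shallow GV libraries. In spring GV replicate 6, OPA1 was 2.90, DNM1L 2.27 and MFN1 0.456 FPKM, each the highest of its group. In summer GV replicate 2, BNIP3L was 5.57 and MFN1 0.613 FPKM, the highest of their group, and PHB was 11.4 FPKM, the lowest. These libraries had relative depths of 0.0565 and 0.393 and cumulus marker sums of 586 and 121 FPKM, and the part of either in the values was not tested. The cumulus markers did not move together: KRT18 was 392 and 34.4 FPKM, while AMH was at 0.01 FPKM in both.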

How the results depend on the processing

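PHB passed in each season, and PINK1 in summer, under all alternatives that were run except the thresholds of the study, by which PINK1 in summer had a fold change under 2 with 1 added before taking logs, and a mean of at least 1 FPKM, which left PINK1 untested. In spring 1 of the 10 genes passed, against 4 after quantile normalization, 3 with all 4 groups in 1 fit, 5 without the 3 shallow libraries, and 1 to 5 when 1 library was left out, with 5 without spring GV replicate 6 and 2 without spring GV replicate 3. By the study's thresholds with 0.1 or nothing added, chosen after seeing the data, 2 passed in spring and 3 in summer, PINK1 being the gene gained. In summer 2 passed, against 5 after quantile normalization and 3 after median-of-ratios scaling (OPA1 gained) and with all 4 groups in 1 fit (FIS1 gained, adjusted p = 0.0410), and FIS1 also passed among genes with a mean of at least 1 FPKM (adjusted p = 0.0345). Quantile normalization called 34.5% of all genes in spring and 41.3% in summer, against 24.2% and 30.7% as deposited. All 4 groups in 1 fit called 31.8% in spring and 28.5% in summer, and median-of-ratios scaling called 39.4% in summer. Without the 3 shallow libraries 41.9% were called in spring. Of the genes with a mean of at least 1 FPKM, 45.6% were called in summer. Of the other pathway genes 21 passed in spring, against 33 after quantile normalization, 34 without the 3 shallow libraries and 12 by the study's thresholds, and 30 in summer, against 13 by the study's thresholds. The cause of these differences was not tested. With the replicate number as a block, 2 genes passed in spring (PHB and BNIP3L) and 3 in summer (PHB, PINK1 and FIS1, the last with a limma adjusted p of 0.00336), and no gene passed the adjusted threshold in a comparison of seasons, where FIS1 had an unadjusted limma p of 0.0263 in MII oocytes and 0.0114 for the difference in maturation, and PINK1 0.0444 in MII oocytes. Over all genes, the fit with this block called 13.9% higher and 16.1% lower at MII in spring, and 8.82% higher and 22.7% lower in summer. Correlations of same-numbered libraries ran from -0.44 to 0.76, 12 of 24 were over 0.1, and in 9 of 24 the best match was the own number. These values cannot decide whether a number marks the same cow, which the labels do not say. The block is therefore given as an alternative and not as the main fit. By the adjusted threshold, the counts of the season comparisons were 0 in all settings. By the study's thresholds with nothing added, MFN2 was higher in summer than in spring MII oocytes (log2 fold change 1.21). It was among 20 genes higher and 82 lower of the 9526 tested. With a pseudocount of 0.1 the median change of all genes was -0.12 in spring and -0.13 in summer, and without a pseudocount -0.18 and -0.30. Of the 5 genes with a common step, MFN2, PINK1, BNIP3 and MFF had libraries under 10 steps, and no counting error could be given for a value.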
